A study of Mus musculus with 15 samples.

Results

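Megalin (Lrp2), cubilin (Cubn), amnionless (Amn), Disabled-2 (Dab2), the chloride-proton exchanger ClC-5 (Clcn5) and the phosphoinositide phosphatase OCRL (Ocrl) serve protein reabsorption at the apical surface of the kidney tubule. These 6 genes were chosen by name for that function, and all 6 were measured, among 13933 genes with a summed value, of which 12366 were tested. Kidney tissue of 15 male C57BL/6 wild-type mice, 8 weeks old when obtained, was sequenced, with n = 5 in each of 3 groups. Control mice had saline and Ang II mice angiotensin II (500 ng/kg/min) by osmotic pump for 28 days, and both groups were given water by mouth. The third group, Ang II + QDG, had the same angiotensin II and Qingda granule (QDG, 1.145 g/kg/day), a Chinese herbal formula given into the stomach. These animals are called QDG mice here, and their comparisons QDG vs. Ang II and QDG vs. Control. Levels are in FPKM, read fragments scaled by transcript length and by library size, summed over the annotated transcripts of a gene.

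Cells of the proximal tubule take filtered albumin, carriers of vitamins and small plasma proteins back from the urine by clathrin-mediated endocytosis. Megalin is a large receptor of the LDL receptor family, cubilin lacks a membrane anchor and relies on amnionless to reach and stay at the surface, and Disabled-2 links megalin to clathrin. ClC-5 serves the acidification of endosomes and OCRL controls their phosphoinositides, and people who lack either lose small proteins into the urine, in Dent disease and Lowe syndrome.

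Implied library totals were 75034658 to 81329475 reads for Control, 70697644 to 79291944 for Ang II and 68922855 to 76143499 for QDG mice. Mitochondrial transcripts held 18.5 to 20.7%, 15.4 to 16% and 16.9 to 19.8% of the FPKM in the same order. The tissue label was checked on 15 proximal tubule markers. All 15 were measured and 0 passed the test in any comparison. Of all genes 5.94% passed in Ang II vs. Control, 1.81% in QDG vs. Ang II and 0.129% in QDG vs. Control. In Ang II vs. Control 5 of the 15 had an unadjusted p under 0.05 (limma), 3 higher and 2 lower, against 22.7% of all genes. The 15 summed to 10106 to 20717 FPKM for Control, 9985 to 13152 in Ang II and 12218 to 16338 in QDG mice. Kap, 1 of the 15, alone had 1922 to 13570, 1557 to 4111 and 3730 to 9151 FPKM in the same order, so much of the spread of the sums is that of 1 gene. The median log2 fold change of the 15 was 0.07 for Ang II vs. Control, -0.02 for QDG vs. Ang II and 0.11 for QDG vs. Control. That of all genes was 0.08, -0.02 and 0.06. In bulk tissue, fewer cells of a type and less RNA per cell cannot be told apart.

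Lrp2 (ENSMUSG00000027070; GRCm38 chromosome 2, 69424340 to 69586065, minus strand), the multiligand receptor, was the most abundant of the 6 in 15 of 15 mice. The 5 Control mice had 234, 237, 228, 202 and 218 FPKM. The Ang II mice had 193, 236, 188, 212 and 215 FPKM, and the QDG mice had 207, 191, 211, 192 and 193. The 3 ranges overlapped, with means of 224 ± 14.2, 209 ± 19.2 and 199 ± 9.79 FPKM (SD, n = 5 each). Between 203040 and 293028 implied reads per mouse lay behind these levels, the most of the 6 genes.

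Cubn (ENSMUSG00000026726; GRCm38 chromosome 2, 13276338 to 13491813, minus strand) has 1 listed transcript. Its FPKM was 80.3, 80.3, 74.0, 66.4 and 69.5 in the Control mice. It was 60.3, 72.7, 59.4, 67.9 and 68.3 in the Ang II mice and 73.9, 70.9, 69.6, 64.5 and 68.4 in the QDG mice. The 2 lowest values of all were from Ang II mice, while the other 3 lay within the Control range.

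Amn (ENSMUSG00000021278; GRCm38 chromosome 12, 111271095 to 111276426, plus strand) ranked after Lrp2 in 14 of 15 mice. The Control mice had 82.9, 88.3, 89.8, 78.5 and 94.1 FPKM and the Ang II mice 91.8, 99.5, 88.4, 102 and 96.8. The QDG mice had 87.8, 69.3, 76.3, 86.2 and 78.0 FPKM. Each QDG mouse was below every Ang II mouse, and both groups overlapped with Control.

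Dab2 (ENSMUSG00000022150; GRCm38 chromosome 15, 6299788 to 6440712, plus strand) varied more among mice of a group, relative to its level, than the receptors did, from 44.1 to 76.3 FPKM for Control, 40.4 to 84.1 in Ang II and 61.2 to 87.8 in QDG mice. Each of these ranges included Cubn values of the same group, so Cubn and Dab2 cannot be put in order. Clcn5 (ENSMUSG00000004317; GRCm38 chromosome X, 7153810 to 7319358, minus strand) was the fifth in 15 of 15 mice. The Control mice had 21.1, 17.7, 21.1, 21.7 and 19.4 FPKM, the Ang II mice 19.9, 24.9, 24.2, 20.1 and 22.5 and the QDG mice 18.9, 19.5, 18.8, 17.6 and 17.7. Again every QDG mouse was below every Ang II mouse, but Clcn5-201, its most abundant transcript, overlapped, at 17.0 to 19.0 against 16.8 to 21.6 FPKM, so the separation of the sums needs the minor transcripts.

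Ocrl (ENSMUSG00000001173; GRCm38 chromosome X, 47912387 to 47965868, plus strand) was the lowest of the 6 in 15 of 15 mice, at 3.77 to 5.55 FPKM in Control and 4.62 to 6.23 in Ang II. QDG mouse 1 had 1.48 FPKM, where the other 4 QDG mice had 5.43 to 6.42. The implied reads of Ocrl, 303 to 1732 per mouse, were the fewest of the 6 genes.

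**Figure D1:**
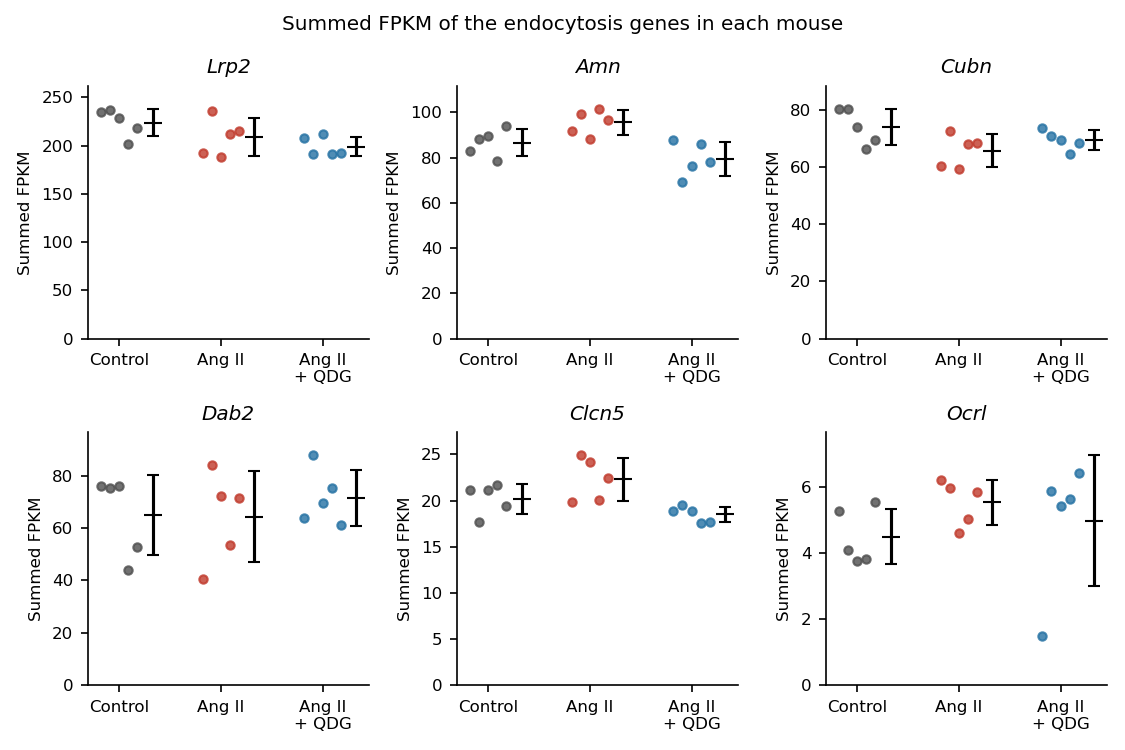
Summed FPKM (vertical axis, from 0) of each of the 6 genes in the 15 mice, by group. Points are mice and black marks are mean ± SD; for Amn and Clcn5 all QDG points lie below all Ang II points, and for Ocrl 1 QDG mouse lies at 1.48 FPKM.

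Ang II vs. Control asks whether the infusion moved these genes. At an adjusted p under 0.05 (limma over all genes, Benjamini-Hochberg), 0 of 6 passed, where 5.94% of all genes tested did. In 0 of 6 the groups did not overlap, as held for 7.92% of all genes, and 1 of 6 had an unadjusted p under 0.05, against 22.7%. That gene was Cubn, with a log2 fold change of -0.17 (SE 0.0704, limma adjusted p = 0.167). Cubn passed when each mouse was scaled to the same median (-0.27, limma adjusted p = 0.0454) and after a correction for GC content and length (-0.29, limma adjusted p = 0.0456).

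The log2 fold change of Lrp2 was -0.10 (95% interval -0.24 to 0.04) and that of Amn 0.14 (-0.01 to 0.29). For Amn the GC and length correction turned the sign, to -0.08 (limma adjusted p = 0.619). Clcn5 had 0.13 (-0.03 to 0.29), Dab2 -0.02 (-0.45 to 0.41) and Ocrl 0.26 (-0.27 to 0.78), the latter pair with the widest intervals. The median over the 6 was 0.06. Of all genes 612 were called higher and 123 lower, a split of 210 to 286 under median scaling, 227 to 266 under quantile normalization and 159 to 186 after the GC and length correction.

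QDG vs. Ang II asks whether QDG moved the genes in infused mice. Here 0 of 6 passed, against 1.81% of all genes. The groups did not overlap for 2 of 6, against 5.00%, and the same 2 of 6 had an unadjusted p under 0.05, against 16.4%. They were Amn, with a log2 fold change of -0.27 (SE 0.0708, limma adjusted p = 0.0709), and Clcn5, with -0.25 (SE 0.0749, limma adjusted p = 0.102), where Clcn5-201 had -0.09. Without QDG mouse 1 the Amn value was -0.30 and passed (limma adjusted p = 0.0492). After the GC and length correction Amn had -0.17 and Clcn5 -0.25 (limma adjusted p = 0.278 and 0.167). Lrp2, Cubn, Dab2 and Ocrl had log2 fold changes of -0.07, 0.08, 0.18 and -0.22, and the median over the 6 was -0.15. With a mouse left out Ocrl reached 0.07 and Dab2 fell to 0.03, and quantile normalization turned Lrp2 to 0.02. All genes split into 65 higher and 159 lower, 68 and 99 under median scaling, and 97 and 97 under quantile normalization.

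For QDG vs. Control 0 of 6 passed, against 0.129% of all genes, and 0 of 6 did not overlap, against 3.64%. An unadjusted p under 0.05 was found for 1 of 6, against 14.4%. Lrp2 was that gene, with a log2 fold change of -0.17 (SE 0.0657, limma adjusted p = 0.265). The other 5 lay between -0.13 for Amn and 0.16 for Dab2. The comparisons share groups of mice, so opposite signs of one gene in them are not separate observations.

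**Figure D2:**
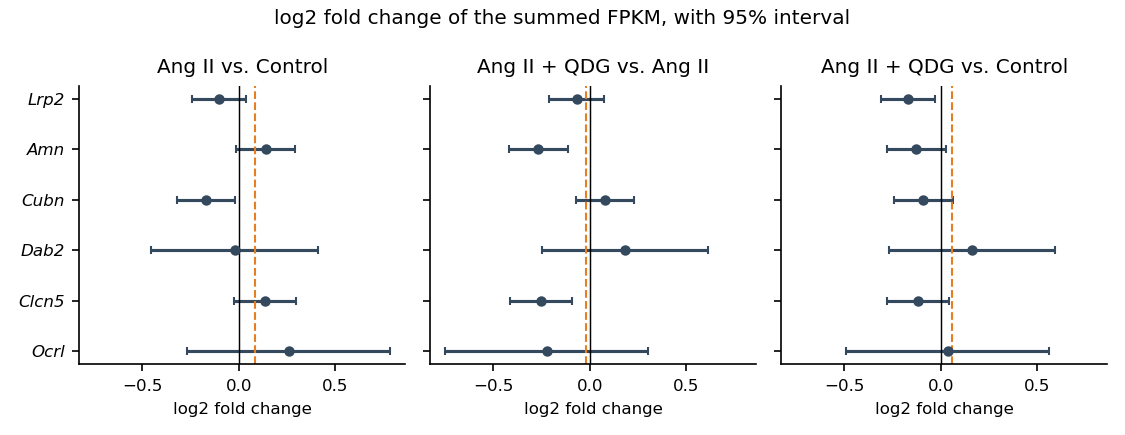
Change of the 6 genes in the 3 comparisons, as log2 fold change of FPKM + 1 (horizontal axis) with 95% intervals from limma. The dashed line is the median of all genes; the intervals of Amn and Clcn5 lie below 0 in QDG vs. Ang II, and those of Dab2 and Ocrl are the widest.

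The ratio of 2 genes within a mouse does not depend on how that mouse was scaled. Cubilin and amnionless form one receptor complex, and the Cubn/Amn ratio was 0.858 ± 0.0874 in Control, 0.687 ± 0.0305 in Ang II and 0.880 ± 0.10 in QDG mice (SD, n = 5 each). The Control mice had ratios of 0.969, 0.909, 0.824, 0.847 and 0.738. The Ang II mice had 0.658, 0.731, 0.672, 0.669 and 0.706, and the QDG mice 0.842, 1.02, 0.911, 0.748 and 0.877. All 5 Ang II mice were below the lowest mouse of both other groups. On the log2 scale Ang II vs. Control differed by -0.31 and QDG vs. Ang II by 0.35 (exact two-sided permutation p = 0.00794 in both, the smallest that 5 against 5 can give, adjusted p = 0.0317 over 12 tests). For QDG vs. Control the difference was 0.04 (exact permutation p = 0.714).

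Amn and Cubn differ in GC content, and the fold changes of all genes varied with GC content. The most abundant Amn transcript is 62.9% GC and that of Cubn 46.4%. The median log2 fold change of all genes in Ang II vs. Control went from 0.01 below 45% GC to 0.20 at 60% and above, and in QDG vs. Ang II from 0.02 to -0.10. After the trend with GC content and length was taken out of each mouse, a step chosen after seeing the data, Cubn/Amn differed by -0.21 in Ang II vs. Control and by 0.27 in QDG vs. Ang II. The groups did not overlap in either (exact permutation p = 0.00794 in both, again the smallest possible, adjusted p = 0.0476).

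Lrp2/Cubn, the ratio of the receptors that bind ligand, was 3.02 ± 0.0916 in Control, 3.18 ± 0.0471 in Ang II and 2.87 ± 0.138 in QDG mice. It differed on the log2 scale by 0.07 in Ang II vs. Control (exact permutation p = 0.0159, adjusted p = 0.0476). The groups of QDG vs. Ang II did not overlap and differed by -0.15 (exact permutation p = 0.00794, adjusted p = 0.0317). After the GC and length correction the 2 differences were 0.01 and -0.13, and neither passed (exact permutation, adjusted p = 0.790 and 0.0635). Lrp2/Dab2 and Clcn5/Ocrl passed in no comparison with all mice, with exact permutation p from 0.135 to 0.984. Without QDG mouse 1, Clcn5/Ocrl in QDG vs. Control was -0.52 and passed (exact permutation, adjusted p = 0.0381).

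**Figure D3:**
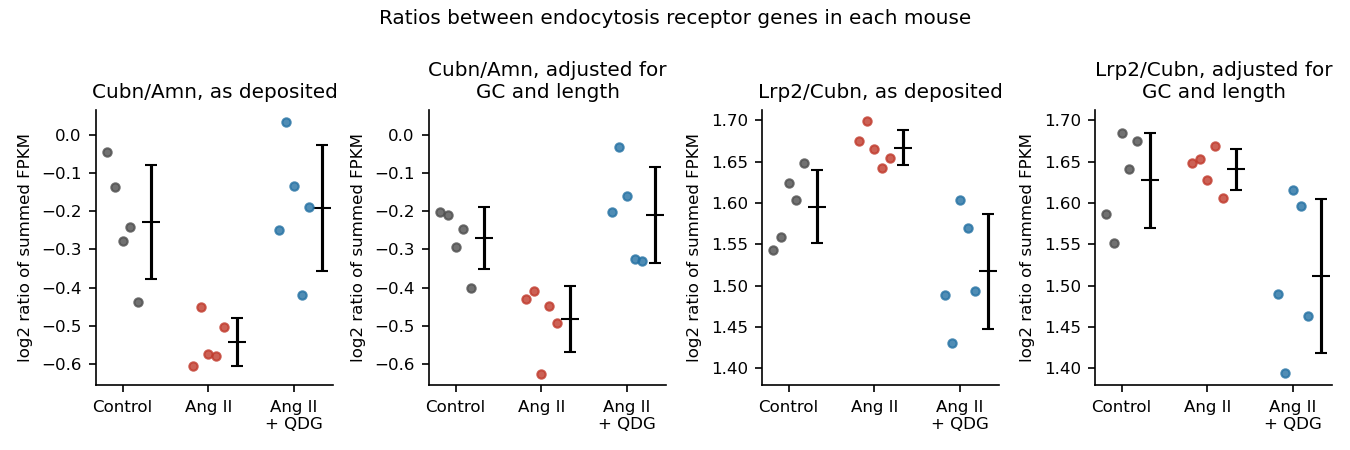
log2 ratio of summed FPKM (vertical axis) of Cubn to Amn and of Lrp2 to Cubn in each mouse, as deposited and after the correction for GC content and length. Points are mice and black marks are mean ± SD; the Ang II points of Cubn/Amn lie below all others in both of its panels.

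Set against the 15 proximal tubule markers, 0 of 18 comparisons passed after adjustment. Amn had the smallest p, with a log2 difference of -0.34 in QDG vs. Ang II and no overlap (exact permutation p = 0.00794, adjusted p = 0.143). This p is the smallest that 5 against 5 can give, and a lone result at it cannot pass over 18 tests. Clcn5 differed by -0.32 there (exact permutation p = 0.0159, adjusted p = 0.143).

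Of the 6 genes 20 transcripts are listed and 15 were tested. In Ang II vs. Control 1 of 15 passed, against 0.691% of all transcripts, and 1 of 15 did not overlap between the groups, against 5.37%. Both counts are of Clcn5-203, which entered the test only through the group where it is high: 5 Ang II, 1 QDG and 0 Control mice had 1 FPKM or more, where the filter asked for 5 mice. They are therefore a description and no evidence about the 15. Clcn5-203 (ENSMUST00000128319) starts at the upstream start of the gene and encodes a longer amino terminus of ClC-5. Its annotated model is incomplete at the 3′ end. It carries 210 coding bases ahead of the start codon used by Clcn5-201 (ENSMUST00000004428), the most abundant transcript. They are shown in capitals, followed by that start codon in lower case (GRCm38, spliced within chrX:7186286-7316674, minus strand).

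Clcn5-203 coding start: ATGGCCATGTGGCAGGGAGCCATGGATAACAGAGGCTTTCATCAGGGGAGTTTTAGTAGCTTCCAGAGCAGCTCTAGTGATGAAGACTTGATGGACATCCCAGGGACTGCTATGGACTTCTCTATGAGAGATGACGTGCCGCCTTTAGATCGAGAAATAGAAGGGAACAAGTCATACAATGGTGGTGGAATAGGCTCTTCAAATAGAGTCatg

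Clcn5-203 had 0.646, 0.115, 0, 0.516 and 0.690 FPKM in the Control mice, from 0 to 57 implied reads. The Ang II mice had 1.74, 3.02, 2.30, 1.48 and 2.33 FPKM, from 112 to 257 reads, and the QDG mice 0, 0.159, 1.28, 0.478 and 0.0399 FPKM, from 0 to 95 reads. Every Ang II mouse was above every mouse of both other groups. On the log2(FPKM + 1) scale, which understates the change of so low a transcript, Ang II vs. Control gave 1.20 (SE 0.239, limma adjusted p = 0.0400). With no filter on low values the same change had an adjusted p of 0.0474 (limma). For QDG vs. Ang II 0 of 15 passed, against 0.0972%, and 2 of 15 did not overlap, against 3.26%. These 2 were Clcn5-203, with -1.24 (SE 0.239, limma adjusted p = 0.0629), and Amn-201, with -0.28 (limma adjusted p = 0.128). The way Clcn5-203 entered the test favours this comparison too. QDG vs. Control had 0 calls, against 0.0243%, and 0 without overlap, against 2.38%. The Clcn5-203 call in Ang II vs. Control was lost with a pseudocount of 0.1, at a log2 fold change of 2.54 with SE 0.745 (limma adjusted p = 0.119), and of 0.01, at 3.42 with SE 1.35 (limma adjusted p = 0.247). Under quantile normalization it was lost at 1.09 (limma adjusted p = 0.0752). The QDG vs. Ang II value passed without QDG mouse 3 (limma adjusted p = 0.0359). The Ang II vs. Control call was kept in 5 of 15 fits that left out a mouse, with adjusted p up to 0.0965 and log2 fold changes of 1.09 to 1.28.

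Clcn5-201 had 19.6 ± 1.54 FPKM for Control, 18.9 ± 1.92 in Ang II and 17.7 ± 0.821 in QDG mice. Its log2 fold change was -0.05 for Ang II vs. Control and -0.09 in QDG vs. Ang II (limma adjusted p = 0.814 and 0.728). It made up 95.9 to 98.7% of the Clcn5 sum in Control, 82.8 to 87.2% in Ang II and 92.1 to 97.3% in QDG mice. The share differed by -12.3 percentage points in Ang II vs. Control and by 10.4 in QDG vs. Ang II (exact permutation p = 0.00794 in both, adjusted p = 0.0595 over 15 tests), with no overlap in either. That p is the smallest possible, so these results alone could not pass over 15 tests.

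The upstream start, Clcn5-203 and Clcn5-202 together, was summed after the data had been seen and has no test. It gave 2.28 ± 1.24% of the Clcn5 sum in Control, 12.2 ± 1.80% in Ang II and 2.93 ± 2.35% in QDG mice. How the authors divided reads among transcripts of a gene is not given in the sources used here, and levels of single transcripts rest on that step.

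The 250 bases before each of these Clcn5 starts are given because Clcn5-203, the transcript that was called, starts at the upstream one (RefSeq, GRCm38.p6, chrX:7319359-7319608 and chrX:7188715-7188964, minus strand). Capitals mark CG dinucleotides. The upstream window holds 11, and 35.6% of 32851 windows of that length hold as many or more. The downstream window holds 3, as do 71.0% by the same count.
Upstream start: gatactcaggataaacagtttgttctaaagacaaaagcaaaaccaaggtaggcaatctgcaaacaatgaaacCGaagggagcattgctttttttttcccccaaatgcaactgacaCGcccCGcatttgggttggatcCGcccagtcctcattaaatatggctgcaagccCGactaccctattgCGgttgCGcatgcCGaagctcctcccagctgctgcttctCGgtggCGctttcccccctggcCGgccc
Downstream start: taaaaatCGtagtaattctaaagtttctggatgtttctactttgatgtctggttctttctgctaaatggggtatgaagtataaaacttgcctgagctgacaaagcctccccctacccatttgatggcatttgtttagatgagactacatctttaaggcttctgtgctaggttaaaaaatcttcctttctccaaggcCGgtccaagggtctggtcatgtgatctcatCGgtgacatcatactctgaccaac

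**Figure D4:**
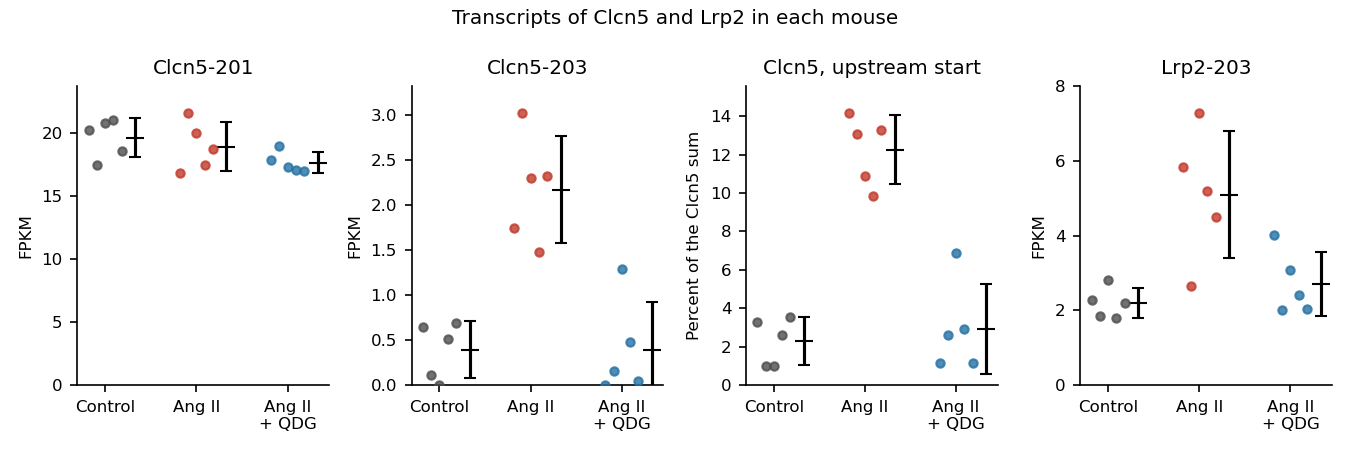
FPKM of Clcn5-201, Clcn5-203 and Lrp2-203, and percentage of the Clcn5 sum from its upstream start (vertical axes, from 0), in each mouse. Points are mice and black marks are mean ± SD; Clcn5-203 is higher in every Ang II mouse than in any other mouse.

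Lrp2 was carried by Lrp2-201, with 97.9% of the sum in Control, 96.5% in Ang II and 97.2% in QDG mice. A shorter transcript, Lrp2-203 (ENSMUST00000100051), has 4089 coding bases where Lrp2-201 has 13980. It reads through the end of an Lrp2-201 exon and meets a stop codon in what follows. The coding bases past that exon end are in capitals (GRCm38 chr2:69506335-69506408, minus strand).

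Lrp2-203 coding end: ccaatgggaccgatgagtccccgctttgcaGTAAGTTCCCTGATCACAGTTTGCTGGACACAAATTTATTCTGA

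Lrp2-203 had 2.27, 1.85, 2.80, 1.80 and 2.19 FPKM in the Control mice. The Ang II mice had 5.82, 2.66, 7.27, 5.20 and 4.48 FPKM and the QDG mice 4.02, 2.01, 3.09, 2.40 and 2.03. Ang II mouse 2 lay within the Control range and the other 4 Ang II mice above it. The log2 fold change was 0.89 for Ang II vs. Control (SE 0.209, limma adjusted p = 0.0634) and -0.69 in QDG vs. Ang II (limma adjusted p = 0.202). Without Ang II mouse 2 the first was 1.07 and passed (limma adjusted p = 0.0471). Lrp2-203 was 0.976% of the Lrp2 sum in Control, 2.51% in Ang II and 1.35% in QDG mice.

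Dab2 was listed as 7 transcripts. Dab2-208 and Dab2-209, with 708 and 705 coding bases where Dab2-202 has 2298, together held 72.5 ± 18.3% of the sum in Control, 66.8 ± 17.2% in Ang II and 73.1 ± 25.9% in QDG mice. Their last exons start at different bases and end at the same one, so the exons overlap. The coding bases of each last exon are in capitals after a stretch that both share (GRCm38, spliced within chr15:6424668-6427354 and chr15:6424668-6427541, plus strand).
Dab2-208 coding end: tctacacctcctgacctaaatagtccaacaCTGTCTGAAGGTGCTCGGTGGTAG
Dab2-209 coding end: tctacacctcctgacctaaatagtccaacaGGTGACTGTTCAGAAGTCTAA

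The longer Dab2-201, Dab2-202 and Dab2-204 summed to 3.78 to 36.9 FPKM within Control alone. In QDG mouse 2 Dab2-201 had 29.4 and Dab2-204 25.7 FPKM, where the other 4 QDG mice had at most 4.50 and 0.117. Dab2-208 held 44.0%, 28.5% and 51.3% of the sum in Control, Ang II and QDG mice (exact permutation p from 0.111 to 0.651). Since FPKM divides by length, how reads were divided between short and long transcripts changes the Dab2 sum.

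Ocrl was carried by the short Ocrl-202, with 546 coding bases where Ocrl-201 has 2700. For Control mice, Ocrl-202 had 3.33 ± 0.880 FPKM and Ocrl-201 1.17 ± 0.721. Amn-201 held 98.6% of the Amn sum in Control.

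**Figure D5:**
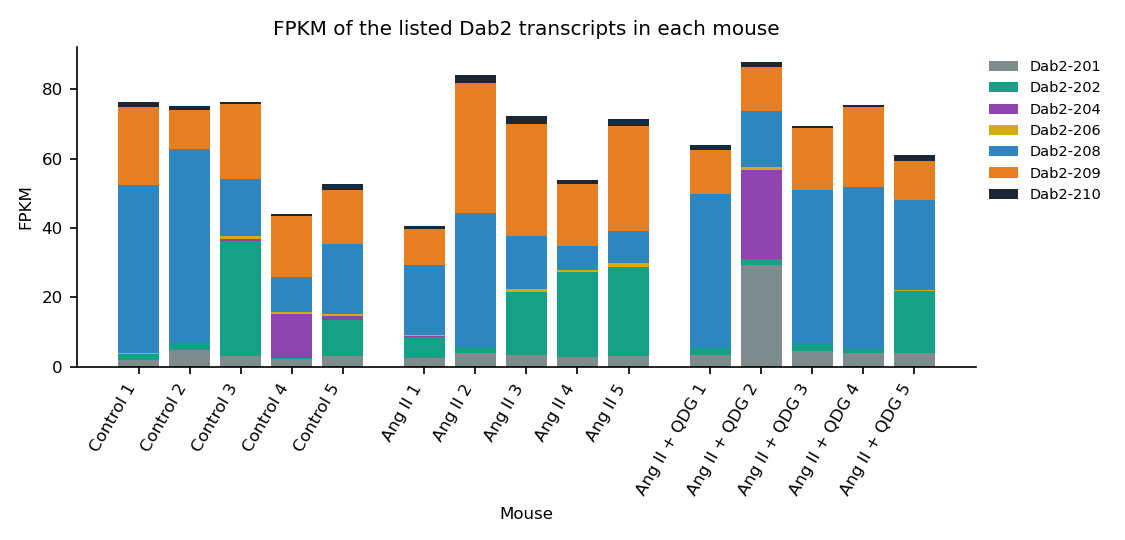
FPKM of the 7 listed Dab2 transcripts, stacked (vertical axis, from 0), in each of the 15 mice, by group. Dab2-201 and Dab2-204 stand out in QDG mouse 2.

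The steps on either side of these genes were read from lists of known genes. Of 7 tested partners and adaptors of megalin 0 passed in any comparison. Fcgrt, the neonatal Fc receptor, which returns albumin to the body, had log2 fold changes of -0.12 for Ang II vs. Control and 0.24 for QDG vs. Ang II (limma adjusted p = 0.408 and 0.134). Gipc1, which binds the megalin tail, had 0.20 and -0.09 (limma adjusted p = 0.136 and 0.616). Of 18 clathrin coat and vesicle genes 1 rose in Ang II vs. Control, the clathrin light chain Cltb, by 0.28 (limma adjusted p = 0.0276), a call lost under quantile normalization, median scaling and the GC and length correction. Of 21 genes of the early and recycling endosome 1 fell, the sorting nexin Snx2, by 0.19 (limma adjusted p = 0.0416), which was kept in 3 of 15 fits that left out a mouse. Both counts lie near the 5.94% of all genes that passed in Ang II vs. Control in either direction, so they are no result about these lists. Neither list had a call in QDG vs. Ang II.

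Endosomal acidification is the step that ClC-5 serves. In Ang II vs. Control 3 of 22 genes rose and 0 fell, where 5.94% of all genes passed in either direction, with a median of 0.11 where all genes had 0.08. Atp6v0b, a subunit of the proton pump, went from 117 ± 8.12 FPKM in Control to 161 ± 16 in Ang II (log2 fold change 0.45, limma adjusted p = 0.00840). Other pump subunits passed too, Atp6v1g1 with 0.32 (limma adjusted p = 0.0299) and Atp6v0a4 with 1.09 (limma adjusted p = 0.0241). Under quantile normalization or the GC and length correction 1 of the 3, Atp6v0b, passed. With protein-coding transcripts only Atp6v0b lost its call, at 0.26, and 1 of the 3, Atp6v1g1, passed. Atp6v0a4 stayed at 1.00 to 1.26 over the 11 alternatives. In QDG vs. Ang II 2 of 22 fell and 0 rose, where 1.81% of all genes passed in either direction, with a median of -0.14 where all genes had -0.02. Atp6v1a, the catalytic subunit, fell by 0.32 (limma adjusted p = 0.0150) and Atp6v0a4 by 1.14 (limma adjusted p = 0.0385), and under median scaling 0 of 22 passed. After rescaling without mitochondrial transcripts 4 of 22 passed, all lower. Over the 11 alternatives Atp6v0a4 had -1.38 to -1.12 and Atp6v1a -0.33 to -0.23. The calls were kept in 15 of 15 fits that left out a mouse for Atp6v1a and in 7 for Atp6v0a4. Intercalated cells also hold much proton pump: 1 of the 2 measured markers of that cell passed in Ang II vs. Control, Slc26a4 with 0.49 (limma adjusted p = 0.0312). It was called under 7 of 11 alternatives and in 8 of 15 fits that left out a mouse. The summed level of the 2 markers was 39.4 to 45.1 FPKM for Control, 47.0 to 68.1 in Ang II and 51.8 to 66.7 in QDG mice. Their part in the result was not tested.

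Lysosomes break down what was taken up. The 17 lysosomal genes had a median of -0.08 in Ang II vs. Control, where all genes had 0.08, and 0.06 in QDG vs. Ang II, where all genes had -0.02. Lamp2, a lysosomal membrane protein, fell in Ang II vs. Control by 0.26 (limma adjusted p = 0.0192), from 414 ± 15.2 to 346 ± 28.3 FPKM. It passed under 11 of 11 alternatives and in 15 of 15 fits that left out a mouse.

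Among 12 tested genes of known ligands 2 fell and 1 rose in Ang II vs. Control, where 5.94% of all genes passed in either direction. B2m, which encodes β2-microglobulin, fell by 0.82 (limma adjusted p = 0.00865) and Apoe, apolipoprotein E, by 1.99 (limma adjusted p = 0.0305). With a mouse left out B2m was called in 15 of 15 fits and Apoe in 9. Mt1, a metallothionein, rose by 0.64 (limma adjusted p = 0.0421) and was called under 5 of 11 alternatives and in 4 of 15 such fits. In QDG vs. Ang II 0 of the 12 passed. Of 8 transcription factors of the proximal tubule 0 passed in any comparison. Rxra, a retinoid X receptor, had 0.17 in Ang II vs. Control (limma adjusted p = 0.149). For QDG vs. Control 0 genes of these lists passed.

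Markers of other cells moved as well, beside 5.94% of all genes in Ang II vs. Control and 0.129% in QDG vs. Control. In Ang II vs. Control the podocyte gene Podxl rose by 0.35 (limma adjusted p = 0.0277) and was called under 7 of 11 alternatives. The 4 measured podocyte genes summed to 76.6 to 85.7 FPKM in Control, 103 to 130 in Ang II and 100 to 127 in QDG mice. Of 5 endothelial genes 1 rose, Egfl7 by 0.92 (limma adjusted p = 0.0140), and of 5 fibroblast and pericyte genes 1, Pdgfrb by 1.13 (limma adjusted p = 0.0468), which was called under 4 of 11 alternatives. In QDG vs. Control 1 of 5 red blood cell genes rose, Hba-a1 by 1.17 (limma adjusted p = 0.0257). Egfl7 was called under 10 of 11 alternatives and Hba-a1 under 9. Of 4 tested leukocyte genes 0 passed in any comparison, with a median of -0.37 for Ang II vs. Control and 0.32 in QDG vs. Ang II. The 6 measured ones summed to 111 to 186 FPKM in Control, 88.9 to 116 in Ang II and 84.7 to 228 in QDG mice. Cd74 alone had 106 to 180, 85.2 to 112 and 79.3 to 218 FPKM in the same order, so the sums are nearly those of 1 gene. Adgre1, a macrophage marker, was lower in every Ang II than in every Control mouse, with -0.39 (limma adjusted p = 0.223). It had 0.763 to 1.19 FPKM in Ang II and 1.26 to 2.17 in Control. Such a lack of overlap, in either direction, held for 7.92% of all genes. Cd74 had -0.52 (limma adjusted p = 0.200). Of the untested leukocyte genes, Csf1r had means of 0.0362 FPKM in Control and 0.566 in Ang II, and Mrc1 0.790 and 0.738. Markers of the thick ascending limb, the distal convoluted tubule and principal cells had 0 calls in any comparison. Of 4 injured tubule markers only 1 was tested, Vcam1, with 0 calls. Its means were 1.91, 1.84 and 2.14 FPKM in Control, Ang II and QDG mice, too little to judge tubular injury. The part of these cells in the results on the 6 genes was not tested.

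The genes most like each of the 6 over the 15 mice, among 7269 genes with a mean of at least 5 FPKM, are given as a description. The mice share 3 treatments, so genes that differ between groups in the same way are alike by that alone. Lrp2 was followed by Arsb (r = 0.79, rho = 0.74), Sar1a (r = 0.78, rho = 0.55) and Erlin1 (r = 0.74, rho = 0.75). Cubn was followed by Gm11127 (r = 0.86, rho = 0.80), Mtif2 (r = 0.82, rho = 0.74) and Gpat3 (r = 0.81, rho = 0.74). The genes closest to Amn were Mrpl4 (r = 0.87, rho = 0.89), Psmd3 (r = 0.86, rho = 0.88) and Polr2i (r = 0.84, rho = 0.79). Those closest to Dab2 were Vrk3 (r = 0.85, rho = 0.50), Phykpl (r = 0.78, rho = 0.75) and Atp6v0d2 (r = 0.74, rho = 0.71). Clcn5 was most like Slc18a1 (r = 0.87, rho = 0.90), Slc30a2 (r = 0.87, rho = 0.84) and Castor2 (r = 0.84, rho = 0.89). Ocrl was most like Luzp1 (r = 0.89, rho = 0.65), Rhcg (r = 0.89, rho = 0.53) and Zfp943 (r = 0.87, rho = 0.35), values that include QDG mouse 1.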

How the data were processed

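Kidney RNA of 15 mice was sequenced as paired-end libraries. The labels name a depletion of ribosomal RNA, and the study's methods add a poly(A) selection, so whether RNA without a poly(A) tail was measured in full is unsure. The authors deposited 1 FPKM value per transcript and mouse. This unit was inferred from the values, of which 98.4 to 98.7% under 200 reads were whole multiples of 1 read (tolerance 0.05 read). The submitters' processing notes name limma and mm10. The aligner and annotation are not given in the sources used here. Values were summed per gene over transcripts listed in all 15 files, named with GENCODE M21 (GRCm38), where 31244 of 31301 Ensembl identifiers matched. Assembled transcripts without a gene name held 9.57 to 11.9% of the FPKM and entered the transcript test only.

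The labels do not number the mice, so numbers follow the order of listing. The study's methods give 5 mice a group, and each file was taken as 1 mouse. limma 3.58.1 (R 4.3.3, with trend) was fitted to log2(FPKM + 1) of features with 1 FPKM or more in 5 or more mice, all groups in 1 model. Ratios and shares were tested by exact two-sided permutation (scipy 1.17.1). Alternatives covered scaling, pseudocount, filter, trend, samples, summed transcripts and each mouse left out. The GC and length correction and the start-site sums were added after seeing the data. The fits were tested on simulated data.

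The 6 genes and all lists were chosen with earlier results of these data known. Named are all members and their transcripts where a result turns on them, the called genes of each context list (at most 4 by p, or the 2 with the smallest p where none was called), called markers, and the 3 genes most like each member. Some genes that this rule names are not reported here. Reads of Cubn and Dab2 could not be separated from overlapping Gm13270, Gm16311 and Gm18888, since strand is not stated. Numb, Cblif, Plg, Scgb1a1, Synpo, Slc4a1, Havcr1, Krt20 and Sox9 were not analysed here.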

Additional observations from a re-analysis of the deposited data

Results flagged for a closer look

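Levels, ratios and shares of the 6 genes were screened, in 108 groups of 5 mice, for a mouse whose gap to its nearest neighbour exceeded 0.71 of the range (Dixon's test). This held in 10 groups, where chance gives about 1 in 20. Of these, 6 concern QDG mouse 1. Its summed Ocrl level was 1.48 FPKM where the other 4 mice had 5.43 to 6.42. Ocrl-201 had 0.0137 FPKM there (others 1.49 to 1.91) and Ocrl-202 had 1.47 (others 3.79 to 4.51), so that Ocrl-202 made up 99.1% of the Ocrl sum (others 69.4 to 73.6%). The log2 Clcn5/Ocrl ratio was 3.67 (others 1.46 to 1.79), and the log2 ratio of Ocrl to the proximal tubule markers was -7.55 (others -6.11 to -5.97).

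QDG mouse 2 had 29.4 FPKM of Dab2-201 (others 3.48 to 4.50), and QDG mouse 5 had 17.8 FPKM of Dab2-202 (others 1.19 to 2.01). Ang II mouse 4 had 2.35 FPKM of Amn-202 (others 0.480 to 0.952), and Amn-201 made up 97.7% of its Amn sum (others 99.0 to 99.5%).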

How the results depend on the processing

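No paired analysis applies, because the study assigned separate mice at random to the 3 groups. The number of the 6 genes called in Ang II vs. Control was 1 under median scaling and 1 after the GC and length correction, Cubn in both, where it was 0 as reported. The number of their transcripts called there was 0 under quantile normalization, 0 with a pseudocount of 0.1 or 0.01, 2 under median scaling and 0 to 1 with a mouse left out. In QDG vs. Ang II both numbers were 0 to 1 with a mouse left out.

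Values that lost their call or turned their sign follow, and their cause was not tested. After the GC and length correction Lrp2/Cubn was 0.0129 for Ang II vs. Control and -0.129 in QDG vs. Ang II, Amn in Ang II vs. Control was -0.0812, and the ratios to proximal tubule markers were 0.0434 for Dab2 for Ang II vs. Control and 0.00127 for Ocrl in QDG vs. Control. Quantile normalization gave 0.0156 for Lrp2 in QDG vs. Ang II and -0.0450 for Ocrl in QDG vs. Control. Median scaling gave -0.0391 for the latter and -0.0109 for Amn-201 in Ang II vs. Control. By the median of the marker list the ratio was 0.0353 for Lrp2 in QDG vs. Ang II, and 0.0112 for Cubn and 0.136 for Ocrl in QDG vs. Control.

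With each mouse left out in turn, Cubn/Amn was -0.367 to -0.269 in Ang II vs. Control, 0.295 to 0.408 in QDG vs. Ang II and -0.0198 to 0.0930 in QDG vs. Control. Lrp2/Cubn was 0.0582 to 0.0843 and -0.171 to -0.128 in the first 2 of these, where each ratio passed in 6 of 10 fits. The share of Clcn5-201 was -12.8 to -11.7 percentage points for Ang II vs. Control and 9.86 to 11.3 in QDG vs. Ang II. It passed in 2 of 10 and 1 of 10 fits, where it had not passed with all mice. The share of Lrp2-201 was -1.68 to -1.04 for Ang II vs. Control and -0.855 to -0.564 in QDG vs. Control, and passed in 1 of 10 fits in each. For Dab2 in Ang II vs. Control the level was -0.149 to 0.132, the marker ratio -0.150 to 0.132 and Lrp2/Dab2 -0.208 to 0.0138. Its marker ratio was -0.0341 to 0.205 in QDG vs. Ang II and -0.0394 to 0.174 in QDG vs. Control. Cubn's was -0.0308 to 0.0427 in QDG vs. Ang II. For Ocrl in QDG vs. Ang II the level was -0.326 to 0.0692, the marker ratio -0.384 to 0.00939, Clcn5/Ocrl -0.353 to 0.199 and the share of Ocrl-202 -1.51 to 6.11. In QDG vs. Control they were -0.0674 to 0.327, -0.118 to 0.275, -0.525 to 0.0265 and -4.17 to 6.42, and the share in Ang II vs. Control was -8.32 to 2.27. Clcn5-203 in QDG vs. Control was -0.238 to 0.0598.

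All genes called numbered 735, 224 and 16 in the 3 comparisons, 345 to 815, 58 to 226, 4 to 80 under the alternatives and 338 to 797, 53 to 249, 0 to 110 with a mouse left out. All transcripts called numbered 199, 28 and 7, then 108 to 243, 11 to 32, 3 to 12, and 29 to 359, 11 to 43, 1 to 23. Clcn5-203 had 0 to 257 implied reads per mouse, and counting error at that depth was not separated from the spread between mice.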
